A study of Mus musculus with 19 samples.

Results

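The genes described are 9 that encode surface, adhesion and secreted proteins of the bile duct epithelium and of the ductular reaction: Epcam, Cdh6, Cldn4, Cldn7, Tspan8, Cd24a, Muc1, St14 and Spp1. They were found by symbol, each as 1 of the 35976 rows of the deposited count table. They were selected on their role and on earlier measured differences in these same mice, in which several of the 9 were higher in Homo livers than in WT or Het livers. Their differences between Homo and the other genotypes are therefore given as a description and are not used as evidence of an effect.

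RNA was sequenced from the livers of 19 mice, 1 library per mouse. By genotype at Pkd1, the gene of polycystin-1, there were 7 WT, 6 Het and 6 Homo mice. All 3 groups, WT included, carried AAV-Cre, a viral vector for Cre recombinase, and all were kept for 3 months on a Western diet with carbon tetrachloride (CCl4), a toxin and diet model of non-alcoholic steatohepatitis (NASH). They are described as littermates. No group without AAV-Cre or without the diet and toxin is analysed here. The sources used here do not give the promoter of Cre, the part of Pkd1 that Cre removes, or the sex, age and litter of the mice. The mouse number below is the number at the end of a sample's title, and the labels do not give its meaning.

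Bile ducts are lined by cholangiocytes, a small share of liver cells joined by tight junctions and coated on the duct side with mucins. In chronic liver injury, small duct-like structures expand around the portal tracts, which is called the ductular reaction. Cells of these structures are known to carry EpCAM and CD24 on their surface and to secrete osteopontin, the product of Spp1. In whole liver tissue, fewer cells of a type and less RNA per cell cannot be told apart. Osteopontin is also made by macrophages and stellate cells, CD24 by immune cells, and most of the 9 by the ducts of other organs.

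Promoters from RefSeq (build GRCm38.p6) cover 250 bases before to 50 after an annotated start, and 7 of the 9 genes had an entry, with 9 promoters in all. They were searched on both strands for 3 motifs of factors known for epithelial genes: CAGGTG, an E-box bound by Snail and ZEB repressors, AACCNGTT, a Grainyhead-like motif, and GGAATG, a TEAD motif. The first 4 promoters below, of Epcam (chr17:87635729-87636028, plus strand), Cldn4 (chr5:134946885-134947184, minus strand), Muc1 (chr3:89228806-89229105, plus strand) and the second of 2 starts of Cldn7 (chr11:69965171-69965470, plus strand), are shown because each held 2 E-boxes. Those of Cdh6 (chr15:13173626-13173925, minus strand) and Tspan8 (chr10:115817034-115817333, plus strand) are shown because these genes had the largest fold changes and held none of the 3 motifs. Capitals mark a motif match on either strand, and each sequence runs 5′ to 3′ along the gene.
Epcam: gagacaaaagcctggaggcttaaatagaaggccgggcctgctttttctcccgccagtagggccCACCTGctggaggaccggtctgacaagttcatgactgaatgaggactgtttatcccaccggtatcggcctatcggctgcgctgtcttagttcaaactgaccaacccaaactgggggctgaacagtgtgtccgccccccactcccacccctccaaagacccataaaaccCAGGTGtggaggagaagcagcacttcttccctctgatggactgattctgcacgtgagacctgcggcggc
Cldn4: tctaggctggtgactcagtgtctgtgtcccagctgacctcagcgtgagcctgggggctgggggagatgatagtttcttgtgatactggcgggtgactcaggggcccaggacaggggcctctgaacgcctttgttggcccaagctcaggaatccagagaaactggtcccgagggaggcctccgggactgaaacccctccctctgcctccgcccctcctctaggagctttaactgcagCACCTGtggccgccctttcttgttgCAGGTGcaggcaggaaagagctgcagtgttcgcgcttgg
Muc1: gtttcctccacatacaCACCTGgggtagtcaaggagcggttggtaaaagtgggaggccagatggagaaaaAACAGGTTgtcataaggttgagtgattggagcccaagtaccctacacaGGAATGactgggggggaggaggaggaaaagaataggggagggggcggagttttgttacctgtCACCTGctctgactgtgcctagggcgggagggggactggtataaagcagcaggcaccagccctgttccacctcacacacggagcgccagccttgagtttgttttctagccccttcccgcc
Cldn7: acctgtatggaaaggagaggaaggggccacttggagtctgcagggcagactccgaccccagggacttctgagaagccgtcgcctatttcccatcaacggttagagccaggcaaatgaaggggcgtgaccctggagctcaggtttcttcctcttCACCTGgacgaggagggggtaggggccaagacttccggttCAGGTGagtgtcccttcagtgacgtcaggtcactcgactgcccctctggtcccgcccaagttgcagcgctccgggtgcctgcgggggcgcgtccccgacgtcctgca
Cdh6: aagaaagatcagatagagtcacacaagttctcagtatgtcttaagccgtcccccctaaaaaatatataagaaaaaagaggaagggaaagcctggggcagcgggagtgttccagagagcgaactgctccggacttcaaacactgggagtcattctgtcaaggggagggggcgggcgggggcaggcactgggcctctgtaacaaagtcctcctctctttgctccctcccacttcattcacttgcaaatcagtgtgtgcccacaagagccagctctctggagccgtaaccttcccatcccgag
Tspan8: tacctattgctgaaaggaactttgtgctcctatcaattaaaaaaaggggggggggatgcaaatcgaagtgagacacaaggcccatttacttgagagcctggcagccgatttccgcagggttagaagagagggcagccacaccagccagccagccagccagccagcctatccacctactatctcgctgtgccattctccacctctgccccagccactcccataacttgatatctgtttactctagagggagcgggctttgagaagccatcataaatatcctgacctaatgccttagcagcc

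The E-box was present in promoters of 5 of the 7 genes (Cldn4, Cldn7, Epcam, Muc1 and Spp1). Counted by promoter, it was in 5 of 9, since Cldn7 and Spp1 had 2 promoters each and held it in 1, against 20.2% of 32841 RefSeq promoters of the same length. The TEAD motif was in 2 of the 9 promoters, those of Muc1 and of the first start of Cldn7, against 14.7% of all promoters. The Grainyhead-like motif was in 1 of the 9, the promoter of Muc1, against 2.09% of all promoters. No 2 matches overlapped. A match describes the letters in this window and is not a site of binding, and these libraries hold no measurement of binding.

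Library totals ran from 25847075 to 42142903 counts. Levels are in CPM, counts scaled to a common library size with TMM factors, and a gene was called when its adjusted p in edgeR's quasi-likelihood test was under 0.05. Hepatocyte genes were abundant in every library, with 8 markers summing to 15890 to 21870 CPM. Mean Pkd1 was 405 CPM in the 7 WT mice (SD 38.6), 390 in the 6 Het mice (SD 46.2) and 357 in the 6 Homo mice (SD 19.7), and it was not called in any comparison. Because the deleted part is not given, this level is no check of the genotype labels. Pancreatic acinar genes were present in 3 libraries: 6 of them (Cela1, Prss2, Cpa1, Cpb1, Pnlip and Ctrb1) summed to 142 CPM in Homo mouse 8, 231 in Homo mouse 17 and 115 in Het mouse 19. In the other 16 libraries the sum was 1.12 to 3.02 CPM, nearly all of it Cela1, with the other 5 genes together at 0 to 0.349 CPM. Results are therefore given with all libraries and, where they moved, without these 3.

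Across the 9 genes, 8 were tested and Cldn4 was not, since it never reached the filter's 0.289 CPM. For Homo against WT 4 were called, all higher (Cdh6, Tspan8, Cd24a and Muc1), beside 0.292% of 16463 genes called higher and 0.48% called in either direction. For Homo against Het 4 were called, all higher (Cdh6, Tspan8, Cd24a and Epcam), beside 0.146% of genes called higher and 0.182% in either direction. For Het against WT none was called, beside 0.0243% of genes. Both Homo comparisons entered the choice of the genes, so nothing is read from their counts. The comparisons share libraries: both Homo comparisons use the same Homo mice, and the WT and Het mice each enter 2 comparisons. Over all tested genes the median log2 fold change was 0.0019 for Homo against WT, -0.0012 for Homo against Het and -0.0043 for Het against WT.

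**Figure D1:**
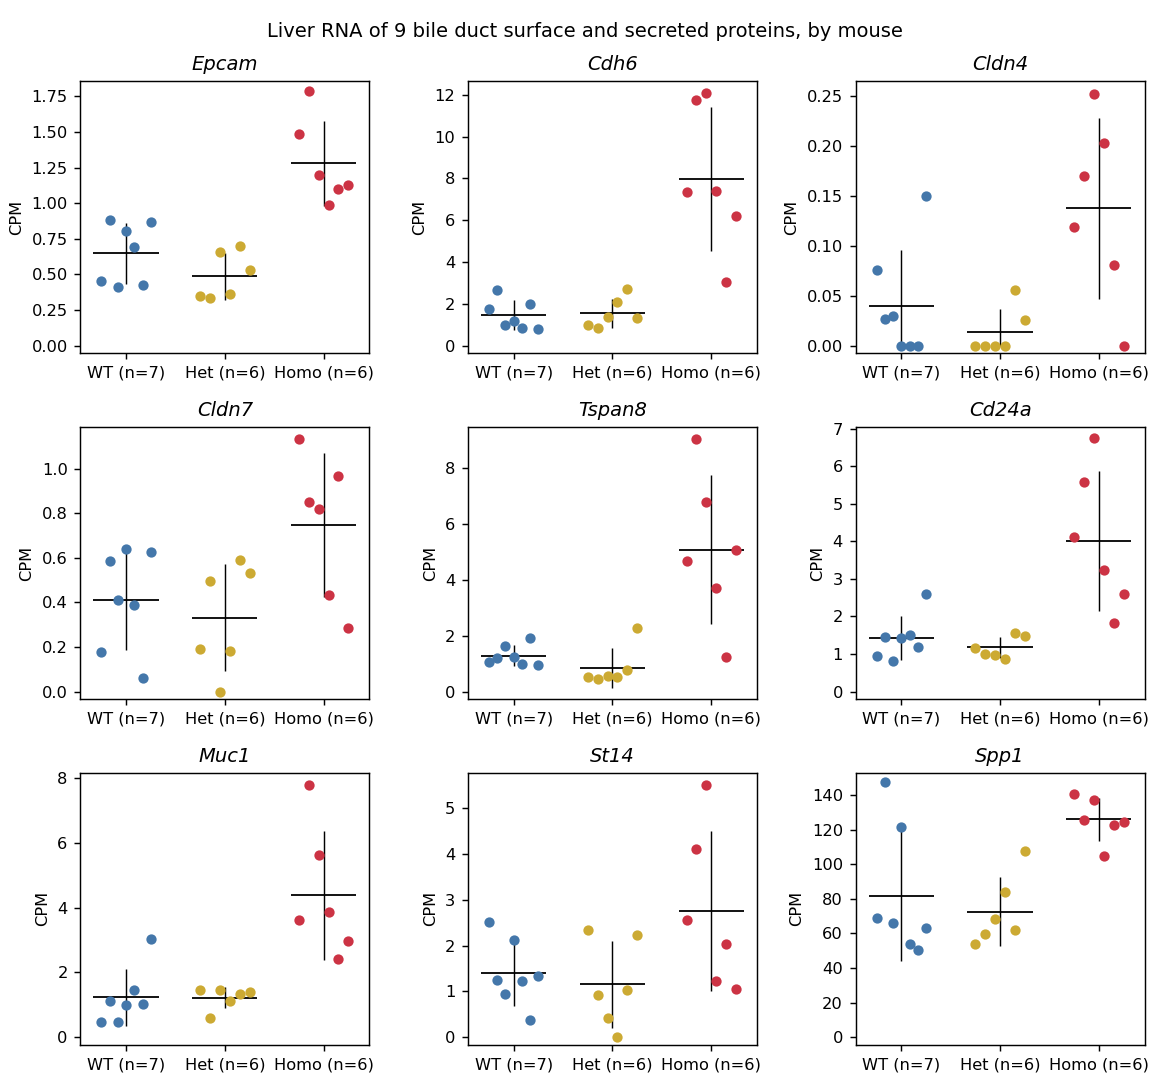
CPM of each of the 9 genes in every mouse, by genotype (7 WT, 6 Het, 6 Homo). Points are mice, horizontal lines are means and vertical lines 1 SD. For Epcam and Cdh6 all 6 Homo mice lie above all WT and Het mice, whereas Homo overlaps both other groups for St14 and Spp1.

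Epcam (chromosome 17, 87635979 to 87651129, GRCm38, plus strand) encodes a homophilic adhesion molecule of simple epithelia and a common marker of cholangiocytes and liver progenitor cells. It lies on the chromosome of Pkd1, which starts at 24549834. WT mice ranged from 0.411 CPM (mouse 3) through a median of 0.695 to 0.882 (mouse 2). In Het mice the lowest was 0.331 CPM (mouse 6), the median 0.446 and the highest 0.701 (mouse 19). In Homo mice the lowest was 0.985 CPM (mouse 16), the median 1.16 and the highest 1.79 (mouse 10). The Homo mice therefore did not overlap either other group, although the gap to WT was small. All 6 Homo mice exceeded all WT mice in 0.528% of tested genes, and all Het mice in 0.51%.

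The log2 fold change of Epcam was 0.98 ± 0.26 (SE) for Homo against WT, not called, and 1.38 ± 0.28 for Homo against Het, called. These values rest on 10 to 63 reads per library. The call against Het ended in 12 of 19 leave-one-library-out fits and without mice 8, 17 and 19, at 1.51 ± 0.33. It also ended without a filter on low counts, with only the 2 genotypes in the fit and without mice 1 to 3, at 1.38 in each, and within mice 14 to 20, at 1.05. Against WT it passed with DESeq2, at 0.98. For Het against WT it was -0.41 (95% interval -0.97 to 0.16, edgeR adjusted p = 0.693).

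Cdh6 (chromosome 15, 13028701 to 13173675, minus strand) encodes cadherin-6, a calcium-dependent adhesion protein best known from kidney tubules and also present in bile duct epithelium. In WT mice it ranged from 0.807 CPM (mouse 13) through a median of 1.17 to 2.67 (mouse 2). Het mice spanned nearly the same range, from 0.861 CPM (mouse 6) through 1.36 to 2.69 (mouse 19). Homo mice lay at 3.07 CPM (mouse 17), 6.20 (mouse 18), 7.36 (mouse 8), 7.42 (mouse 16), 11.7 (mouse 10) and 12.1 (mouse 15). The lowest Homo mouse was thus just above the highest WT and Het mice, and the other 5 were at more than 2 times their level.

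Cdh6 had the largest fold change of the 8 tested genes against WT, at 2.44 ± 0.34 on the log2 scale (5.43-fold), and was at 2.35 ± 0.36 (5.09-fold) against Het. Both calls held in all 19 leave-one-library-out fits. Without mice 8, 17 and 19 the values were 2.67 ± 0.31 and 2.80 ± 0.35, both called. Within mice 8 to 13 (2 Homo and 4 WT) the fold change was 2.98, and within mice 14 to 20 (4 Homo and 3 Het) 1.83, and neither passed. Het against WT was at 0.09 (95% interval -0.63 to 0.82, adjusted p = 0.963), and its sign turned in some fits.

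Claudins 4 and 7 are strands of the epithelial tight junction, and claudin-7 also sits on the lateral membrane, where it is known to bind EpCAM. Cldn4 (chromosome 5, 134945119 to 134946934, minus strand) was close to the limit of detection, with 41 reads over all 19 libraries and at most 8 in 1. It had 0 reads in 3 of 7 WT, 4 of 6 Het and 1 of 6 Homo libraries, where a count of 0 allows a level of 0.0718 to 0.116 CPM (3 reads). Reads numbered 0 to 5 per WT library, 0 to 2 per Het library and 0, 3, 4, 6, 7 and 8 in the Homo mice 18, 17, 8, 10, 16 and 15. The WT and Het means, 0.0402 and 0.0136 CPM, were both under that limit, so no fold change is given.

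Cldn7 (chromosome 11, 69964779 to 69967885, plus strand) ranged from 0.0612 CPM (mouse 12) through a median of 0.411 to 0.639 (mouse 9) in WT. In Het it ranged from 0 reads in mouse 7, which allows up to 0.116 CPM, through 0.343 to 0.589 (mouse 19). In Homo it ranged from 0.287 CPM (mouse 18) through 0.835 to 1.13 (mouse 8), and 4 of 6 mice lay above the highest WT mouse. The groups overlapped, and the log2 fold changes, 0.85 ± 0.54 against WT and 1.14 ± 0.57 against Het, were not called.

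Among the libraries with acinar genes Cldn7 was high. Mice 8 and 17 had the 2 highest levels in Homo (1.13 and 0.968 CPM), and mouse 19 the highest in Het (0.589 CPM). Mouse 19 was also the highest Het mouse for Epcam, Cdh6, Cldn4 and Cd24a. Het mouse 20, with low acinar genes, was close to it in Cldn7, at 0.532 CPM. Without these 3 libraries its fold change against WT was 0.52 ± 0.64. What the pancreatic RNA contributed to Cldn7 was not tested. Het against WT was at -0.29 (95% interval -1.46 to 0.88, adjusted p = 0.917).

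**Figure D2:**
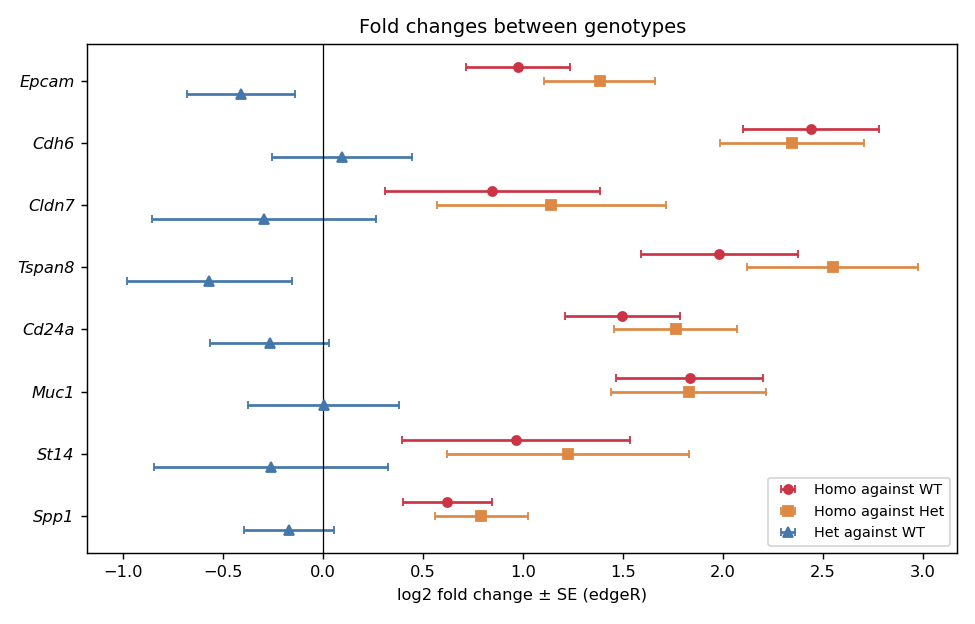
log2 fold change with its standard error for the 8 tested genes in the 3 comparisons, from edgeR. Both Homo comparisons lie above 0 for every gene and Cdh6 and Tspan8 lie farthest out, while Het against WT lies between -0.57 and 0.09.

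Tspan8 (chromosome 10, 115816832 to 115849893, plus strand) encodes a tetraspanin, a membrane organizer of digestive tract epithelia that binds integrins and is carried on exosomes. Among WT mice the levels ran from 0.957 CPM (mouse 13) through a median of 1.20 to 1.93 (mouse 12). Of the 6 Het mice 5 lay between 0.464 and 0.757 CPM, below every WT mouse, and mouse 20 was at 2.28. Homo mice lay at 1.24 CPM (mouse 17), 3.71 (mouse 16), 4.65 (mouse 8), 5.05 (mouse 18), 6.79 (mouse 15) and 9.01 (mouse 10). Except for mouse 17, which was close to the WT median, the Homo mice exceeded all others.

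The log2 fold change of Tspan8 was 1.98 ± 0.39 for Homo against WT and 2.55 ± 0.43 for Homo against Het, both called. Without mice 8, 17 and 19 both stayed called, at 2.25 ± 0.37 and 2.79 ± 0.43. The call against WT ended in 6 of the 19 fits without 1 library, with limma-voom (1.81), with mouse number in the fit (1.77), without mice 1 to 3 (1.98) and within mice 8 to 13 (2.41). The call against Het ended without Het replicate 3 (2.45), with limma-voom (2.56), with only the 2 genotypes in the fit (2.54) and within mice 14 to 20 (1.81). Despite the 5 low Het mice, Het against WT did not pass, at -0.57 (95% interval -1.43 to 0.29, adjusted p = 0.727). Leaving out mouse 20 gave the lowest value of the leave-out fits, -1.18.

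Cd24a (chromosome 10, 43578284 to 43584265, plus strand) encodes CD24, a small mucin-like protein anchored in the membrane by a lipid and used to sort liver progenitor cells. In WT mice it ranged from 0.821 CPM (mouse 3) through a median of 1.42 to 2.60 (mouse 13), and the second highest was at 1.50. Het mice were tightly grouped, from 0.871 CPM (mouse 14) through 1.08 to 1.57 (mouse 19). Homo mice lay at 1.83 CPM (mouse 17), 2.59 (mouse 18), 3.24 (mouse 16), 4.11 (mouse 8), 5.58 (mouse 10) and 6.76 (mouse 15). All of them exceeded all Het mice, and 4 exceeded all WT mice. WT mouse 13 was the 1 WT mouse above the 2 lowest Homo mice.

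The fold change of Cd24a was 1.50 ± 0.29 against WT and 1.76 ± 0.31 against Het on the log2 scale, both called. Leaving out 1 library ended the first call in 4 of 19 fits and the second in 5. The call against WT also ended with only the 2 genotypes in the fit (1.5), with mouse number in the fit (1.37), without mice 1 to 3 (1.25) and within mice 8 to 13 (1.52). That against Het ended with limma-voom (1.66) and within mice 14 to 20 (1.45). Het against WT was at -0.27 (95% interval -0.89 to 0.36, adjusted p = 0.836).

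Muc1 (chromosome 3, 89229057 to 89233381, plus strand) encodes a transmembrane mucin of the apical surface whose cytoplasmic tail takes part in signalling. WT levels ran from 0.469 CPM (mouse 3) through a median of 1.04 to 3.02 (mouse 13), the second highest being at 1.47. Het mice ranged from 0.596 CPM (mouse 6) through 1.37 to 1.47 (mouse 7). Homo mice lay at 2.42 CPM (mouse 17), 2.97 (mouse 18), 3.63 (mouse 8), 3.85 (mouse 16), 5.62 (mouse 15) and 7.79 (mouse 10). As with Cd24a, all Homo mice lay above all Het mice, and only WT mouse 13 reached into the Homo range.

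The log2 fold change of Muc1 was 1.83 ± 0.37 for Homo against WT, called, and 1.83 ± 0.39 for Homo against Het, just outside the threshold. The call against WT ended in 6 of the 19 fits without 1 library, with only the 2 genotypes in the fit (1.84), with mouse number in the fit (1.68), without mice 1 to 3 (1.42) and within mice 8 to 13 (1.8). Against Het it passed with DESeq2, with only the 2 genotypes in the fit and without mice 1 to 3, at 1.82 to 1.83. Without mice 8, 17 and 19 the call against WT held, at 2.04 ± 0.41. Het against WT was at 0.0043 (95% interval -0.78 to 0.79, adjusted p = 0.998), and its sign turned in several fits.

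St14 (chromosome 9, 31089402 to 31131853, minus strand) encodes matriptase, a serine protease anchored in the epithelial membrane that activates other proteases and hepatocyte growth factor. It varied widely within every genotype. In WT mice it ranged from 0.367 CPM (mouse 12) through 1.26 to 2.52 (mouse 1), and in Het from 0 reads in mouse 14, which allows up to 0.0901 CPM, through 0.982 to 2.33 (mouse 4). In Homo mice it ranged from 1.05 CPM (mouse 18) through 2.30 to 5.49 (mouse 15), and 3 of 6 exceeded the highest WT mouse and the same number the highest Het mouse. The log2 fold changes of 0.97 ± 0.57 against WT and 1.23 ± 0.60 against Het were not called, and Het against WT was at -0.26 (95% interval -1.48 to 0.96, adjusted p = 0.934). With limma-voom St14 was at -1.32 for Het against WT and 2.25 for Homo against Het, and Het against WT was at -0.096 with mouse number in the fit and -0.11 without mice 1 to 3, none of them called.

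The genes of the matriptase system were examined beside St14, as 12 regulators, partners and substrates. None of the 10 tested was called in any comparison, and their median log2 fold changes were 0.14 for Homo against WT, 0.16 for Homo against Het and -0.00057 for Het against WT. Mean levels of Spint1, the membrane inhibitor of matriptase, were 0.471 ± 0.315 CPM (SD) in WT, 0.512 ± 0.22 in Het and 1.61 ± 0.567 in Homo, and all 6 Homo mice lay above all WT and Het mice. Its log2 fold change was 1.76 ± 0.42 against WT (edgeR adjusted p = 0.07) and 1.63 ± 0.44 against Het (adjusted p = 0.221). The related inhibitor Spint2 was at -0.05 ± 0.09 and Prss8, prostasin, a protease that matriptase activates, at -0.02 ± 0.21 against WT.

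Spp1 (chromosome 5, 104435118 to 104441050, plus strand) encodes osteopontin, a secreted phosphoprotein that binds CD44 and integrins. It was by far the most abundant of the 9. In WT mice it ranged from 50.4 CPM (mouse 12) through a median of 66.1 to 147.7 (mouse 2), with mouse 9 second at 121.5 and the other 5 mice at 68.6 or less. In Het it ranged from 53.7 CPM (mouse 4) through 65.2 to 107.8 (mouse 20), and in Homo from 104.8 (mouse 16) through 125.0 to 140.5 (mouse 8). The Homo mice were the most uniform, with an SD of 12.7 CPM against 37.5 in WT, and no Homo mouse exceeded WT mouse 2.

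The log2 fold changes of Spp1, 0.62 ± 0.22 against WT and 0.79 ± 0.23 against Het, were the smallest of the 8 tested genes and were not called. Het against WT was at -0.17 (95% interval -0.64 to 0.30, adjusted p = 0.867). In the GENCODE M21 annotation, 309 exonic bases are shared with Gm42793 on the same strand, and reads from them cannot be told apart. None of the 9 tested genes of osteopontin receptors was called in any comparison. Their medians were 0.02, 0.08 and -0.08 for Homo against WT, Homo against Het and Het against WT. Cd44 was at 0.23 ± 0.12 and the integrin subunits Itgav and Itgb1 at 0.02 ± 0.06 and 0.02 ± 0.04 against WT.

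Osteopontin has sources other than duct cells, so markers of these were set beside it. The 14 macrophage genes summed to 278 to 393 CPM in WT, 276 to 379 in Het and 289 to 388 in Homo, and none was called in any comparison. Trem2 was at -0.23 ± 0.33, Gpnmb at 0.44 ± 0.39 and Cd68 at 0.12 ± 0.11 for Homo against WT. The 10 stellate cell genes summed to 232 to 363 CPM in WT, 249 to 297 in Het and 286 to 340 in Homo. None was called in any comparison. Their median log2 fold change was 0.135 for Homo against WT (7 of 10 above 0) and 0.261 for Homo against Het (9 of 10). For Het against WT it was -0.183 (2 of 10). Col1a1 was at 0.17 ± 0.24 against WT and 0.54 ± 0.25 against Het, and Col3a1 at 0.18 ± 0.14 and 0.45 ± 0.15. The part of either cell type in the level of Spp1 was not tested.

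For comparison between genes, levels were divided by the length of the merged exons in kb. In WT livers Spp1 was at 49.5 ± 22.8 CPM per kb (SD, n = 7), above Tspan8 at 0.754 ± 0.213, Cd24a at 0.55 ± 0.225 and Muc1 at 0.524 ± 0.369. Below these came Epcam at 0.296 ± 0.097, Cldn7 at 0.212 ± 0.116, St14 at 0.183 ± 0.094, Cdh6 at 0.162 ± 0.0778 and Cldn4 at 0.0221 ± 0.0304. Spp1 and Cldn4 apart, neighbours in this order overlapped between mice. In Homo livers the order began with Spp1 at 76.4 ± 7.7 (n = 6), Tspan8 at 2.98 ± 1.56, Muc1 at 1.87 ± 0.849, Cd24a at 1.56 ± 0.723 and Cdh6 at 0.884 ± 0.381, so that the mean of Cdh6 stood above those of Epcam (0.584 ± 0.136), Cldn7 (0.384 ± 0.166) and St14 (0.36 ± 0.228), which it did not in WT, although single mice overlapped. In Het livers the lengthwise level of Cdh6 was 0.173 ± 0.0771 and that of Spp1 44.1 ± 12.2 (n = 6). Albumin, the main hepatocyte product, was at 4140 ± 521 CPM per kb in WT.

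Other genes of the duct epithelium gave a mixed picture. Of 24 further genes, mostly of surface and junction proteins, 19 were tested. Only Itgb4, a laminin-binding integrin subunit of epithelial basal surfaces, was called in Homo against WT (1.05 ± 0.19, edgeR adjusted p = 0.012). Its mean was 7.34 ± 1.88 CPM (SD) in WT against 15.2 ± 4.55 in Homo, with 5 of 6 Homo mice above every WT mouse. None of the 19 was called in Homo against Het, where Itgb4 was at 0.87 ± 0.20 (adjusted p = 0.0906), nor in Het against WT. The list's medians were 0.22, 0.36 and -0.07 in the same order of comparisons. Cldn3, the claudin also found in hepatocytes, was at 0.0071 ± 0.09 and Cdh1, E-cadherin, at -0.06 ± 0.19.

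A further list held 20 other duct genes, among them keratins, transcription factors, and membrane channels and transporters. Of these 19 were tested and 3, Krt19, Krt7 and Klf5, were called higher both in Homo against WT and in Homo against Het. The medians were 0.47 and 0.83, and -0.20 for Het against WT, where none was called. Mean Krt19, a keratin, was 1.19 ± 0.865 CPM (SD) in WT, 0.836 ± 0.324 in Het and 6.76 ± 2.96 in Homo. Sox9, which encodes a transcription factor active in cholangiocytes, was at 5.79 ± 1.75 CPM in WT against 5.32 ± 1.49 in Homo, a log2 fold change of -0.12 ± 0.23. The catenins and the Cd24a ligands, 6 partners of Cdh6 and Cd24a, had no call in any comparison and medians of 0.0056, 0.04 and -0.03. Ctnnb1, beta-catenin, was at -0.08 ± 0.06 against WT.

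Mesothelium, the covering of the liver surface, also makes some epithelial genes. Of its 7 genes none was called in any comparison, and the median was 0.18 for Homo against WT. Msln, mesothelin, had means of 0.952 ± 0.882 CPM (WT) and 3.86 ± 1.51 (Homo; 2.02 ± 0.50, edgeR adjusted p = 0.083), whereas Upk3b was at 0.25 ± 0.33 and Upk1b at 0.12 ± 0.39. The summed level was 9.41 to 40.6 CPM in WT, 16.4 to 46.3 in Het and 20.7 to 34.3 in Homo, and no gene of the list was at 0 in all mice of a genotype. The part of mesothelium in the 9 genes was not tested. The 8 hepatocyte genes had no call and a median of -0.14. The 11 pancreas and gut genes had 4 tested, no call and a median of 1.25 for Homo against WT, with sums up to 252 CPM in Homo (mouse 17) against 19.3 in WT.

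With mice 8, 17 and 19 left out, 16750 genes were tested. The 4 genes called for Homo against WT were again Cdh6, Tspan8, Cd24a and Muc1, beside 0.209% of genes called higher. For Homo against Het 3 were called (Cdh6, Tspan8 and Cd24a), beside 0.0597% of genes called higher. Mouse 17 had the lowest Cdh6, Tspan8, Cd24a and Muc1 of the 6 Homo mice, and without these libraries the fold changes of those genes against WT were larger.

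**Figure D3:**
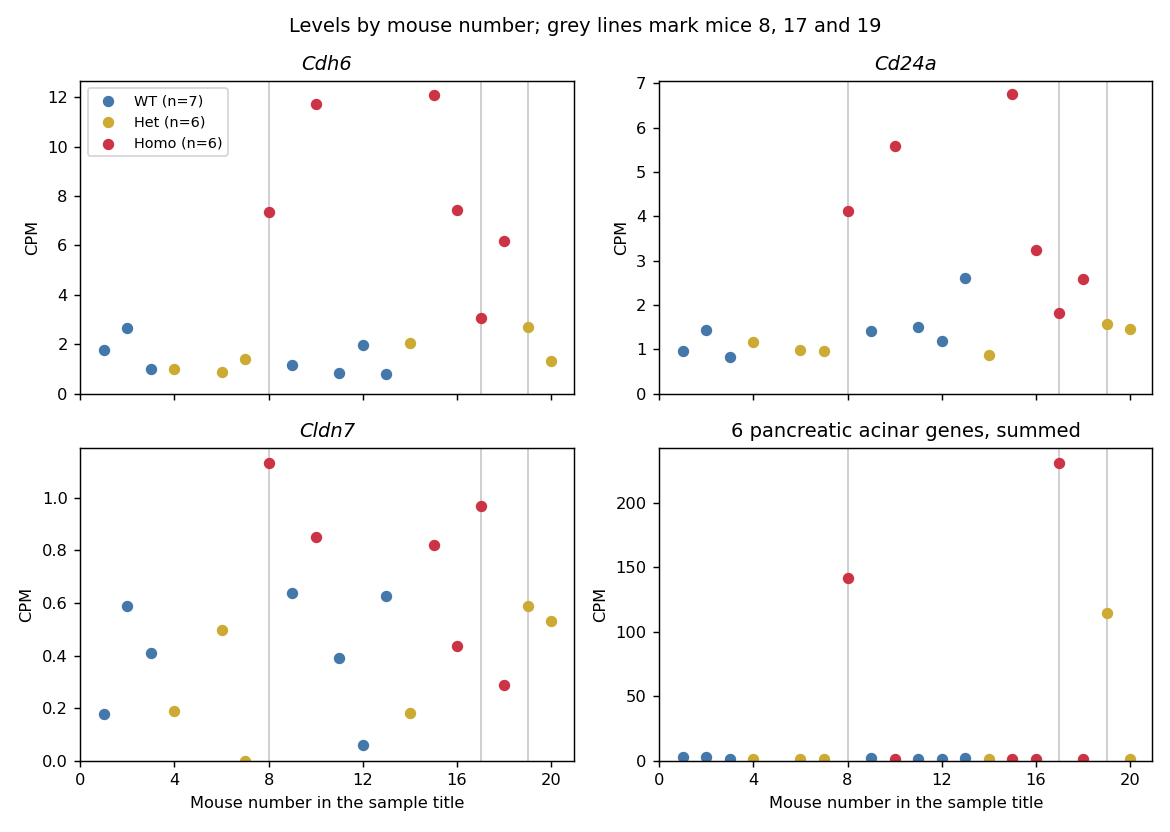
CPM of Cdh6, Cd24a and Cldn7 and the summed CPM of 6 pancreatic acinar genes against the mouse number in the sample title, coloured by genotype. Mice 8, 17 and 19, marked by grey lines, have the acinar genes at 115 to 231 CPM, and mice 8 and 17 the highest Cldn7 but not the highest Cdh6 or Cd24a of the Homo mice.

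The Homo mice were not ordered alike by every gene. Mouse 15 was highest for Cdh6, Cldn4, Cd24a and St14, mouse 10 for Epcam, Tspan8 and Muc1, and mouse 8 for Cldn7 and Spp1. Summed without Spp1, the other 8 genes were at 41.0 CPM in mouse 10 and 39.0 in mouse 15, against 25.1 in mouse 8, 21.1 in mouse 16, 19.3 in mouse 18 and 12.7 in mouse 17. WT mice were at 5.69 to 10.4 CPM and Het mice at 4.67 to 9.78, below Homo mouse 17. Higher levels in Homo entered the choice of these genes, so nothing is read from this separation.

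Within a genotype, the 9 genes form 36 pairs, and their correlation over mice was computed from log2 CPM with a prior count of 2. Both genes of a pair were read from the same library and share its scaling. The 36 pairs reuse the same 9 genes and are not independent. The share of positive pairs among other genes was not computed. In Homo mice (n = 6) 34 of 36 correlations were positive, with a median Pearson r of 0.56. In Het mice (n = 6) 32 were positive with a median of 0.37, and in WT mice (n = 7) 20 with a median of 0.11. Cldn4 had 0 reads in 4 of the 6 Het libraries, so its r values there are near the detection limit. Cldn7 and St14 had 0 reads in 1 Het library each, those of mouse 7 and mouse 14. Without Cldn4, 27 of 28 pairs were positive in Homo, 24 in Het and 15 in WT. The medians were then 0.57, 0.33 and 0.07. No pair passed after adjustment over all pairs in the 3 genotypes (smallest adjusted p = 0.107, exact permutation). With 6 mice the exact p has a lower limit, and at that limit a single Homo or Het pair could not pass. Not passing is therefore no sign that a Homo or Het pair lacks a correlation. The unadjusted exact p was under 0.05 for 6 pairs in Homo, 1 in Het and 3 in WT. The pair in Het was Cldn4 with Cd24a. The difference in median between genotypes was not tested. Mean levels of all 9 genes were lower in WT and Het than in Homo, so fewer reads underlie those correlations. Counting error weakens r, and its part in the medians was not tested.

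In Homo mice the closest pairs were among Cdh6, Tspan8, Cd24a and Muc1. For Cdh6 and Cd24a r was 0.956 (exact permutation p = 0.00278, two-sided, adjusted p = 0.15) and Spearman's rho was 0.943 (exact p = 0.0167), and r was 0.926 without the 2 mice farthest from the median. For Cdh6 and Tspan8 r was 0.948 (exact permutation p = 0.0167, adjusted p = 0.325), rho 0.714 (exact p = 0.136), and r 0.819 without the 2 farthest mice. For Cdh6 and Muc1 r was 0.907 (exact permutation p = 0.00972, adjusted p = 0.284), rho 0.943 (exact p = 0.0167), and r 0.998 without the 2 farthest. These 4 genes were high together in mice 10 and 15 and low together in mouse 17.

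Claudin-7 and osteopontin stood outside that set in the Homo mice. Cldn7 had r of 0.0197 with Cdh6 (exact permutation p = 0.958, rho -0.143 with exact p = 0.803, adjusted p = 0.967), and 0.562 without the 2 mice farthest from the median of Cdh6. With Tspan8 it had r of -0.12 (exact permutation p = 0.822, adjusted p = 0.901), rho -0.2 (exact p = 0.714), and -0.413 without the 2 mice farthest from the median of Cldn7. Spp1 had a median r of 0.37 with the other 8, the lowest of the 9 genes, against 0.71 for Cd24a and 0.69 for Muc1.

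In WT mice the pattern had other pairs. Cd24a and Muc1 were the closest pair, with r of 0.975 (exact permutation p = 0.000992, adjusted p = 0.107), rho 0.964 (exact p = 0.00278), and r 0.92 without mice 13 and 3. Epcam and Cd24a had r of 0.807 (exact permutation p = 0.0105, adjusted p = 0.284), rho 0.786 (exact p = 0.048), and 0.749 without the 2 farthest mice. Epcam and Cldn7, partners at the membrane, had r of 0.77 (exact permutation p = 0.0313, adjusted p = 0.375), rho 0.643 (exact p = 0.139), and 0.982 without the 2 farthest. The same pair had r of -0.168 in Het (exact permutation p = 0.828), where mouse 7 had 0 reads of Cldn7. Its rho there was 0.2 (exact p = 0.714), and r was 0.5 without mice 19 and 7. In Homo the pair had r of 0.538 (exact permutation p = 0.25), rho 0.429 (exact p = 0.419), and r 0.348 without the 2 farthest.

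Tspan8 had a median r of -0.52 with the other 8 genes in WT and was positive with 1 of them, and Cdh6 had -0.18 and was positive with 2, and none of these pairs passed after adjustment. The lowest, Tspan8 with St14, was -0.742 (exact permutation p = 0.0558, adjusted p = 0.618), with rho -0.536 (exact p = 0.236). It turned to 0.333 without the 2 mice farthest from the median of Tspan8, so it rests on those mice. Without the same mice, 3 and 12, r also turned positive for Tspan8 with Epcam (-0.627 to 0.221) and Spp1 (-0.139 to 0.935). With Cldn4 it turned (-0.486 to 0.113) without mice 13 and 1, the farthest from the median of Cldn4. The mice left out thus differ between pairs, and 4 of the 7 negative values of Tspan8 in WT turned. Some positive values in the other genotypes turned negative in this check, while others kept their sign. Those that turned include Cldn7 with St14 in Homo (0.721 to -0.777) and Cldn4 with Cd24a in Het (0.891 to -0.881). In Homo mice the medians of Tspan8 and Cdh6 were 0.50 and 0.55.

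**Figure D4:**
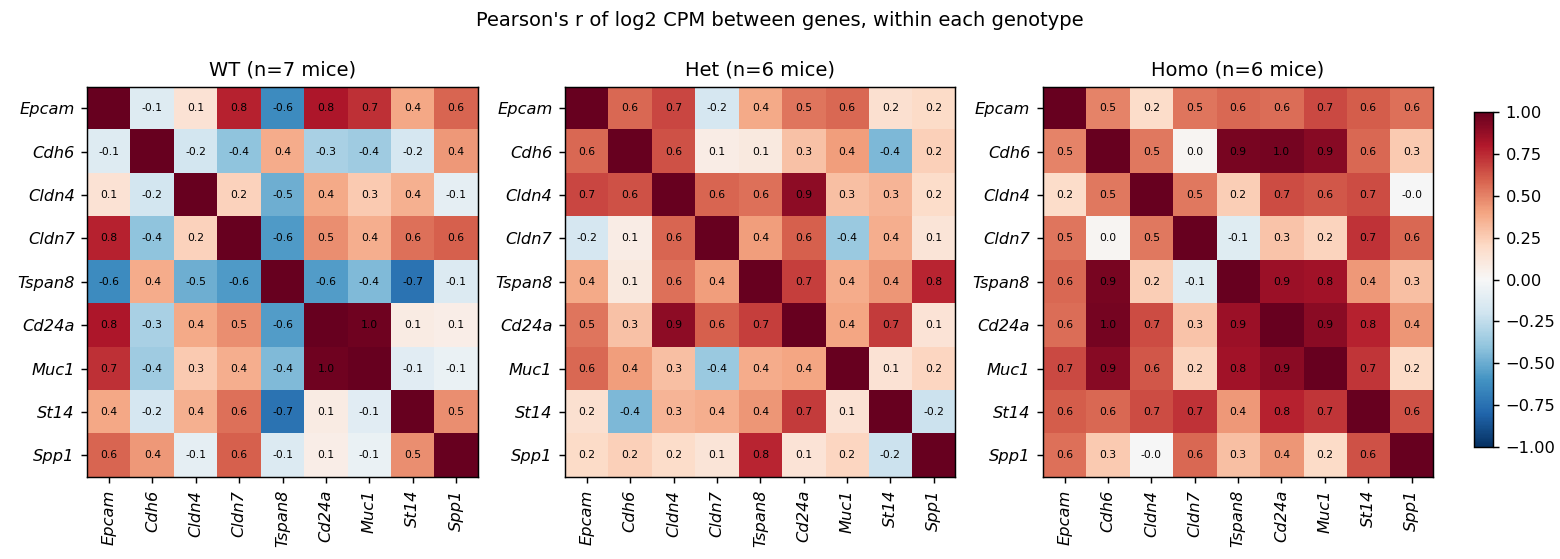
Pearson's r of log2 CPM for all 36 pairs of the 9 genes within WT (n = 7), Het (n = 6) and Homo (n = 6), with red for positive and blue for negative values. In Homo 34 of 36 pairs are positive, in Het 32 and in WT 20, where Tspan8 is negative with 7 of the other 8 genes.

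The same 9 genes were set against the duct keratin Krt19, which is not one of them. In Homo mice all 9 correlations were positive, with a median r of 0.79, against 0.27 in Het (9 of 9 positive) and 0.25 in WT (7 of 9). Cd24a with Krt19 in Homo had r of 0.974 (exact permutation p = 0.00278, adjusted p = 0.136 over all such relations with Krt19, Trem2, Col1a1 and mouse number), rho 0.943 (exact p = 0.0167), and 0.964 without mice 17 and 18. With the macrophage gene Trem2 the median was -0.55 in Homo (2 of 9 positive), 0.33 in Het (7 of 9) and 0.23 in WT (7 of 9). With the collagen gene Col1a1 it was 0.09 in Homo (5 of 9 positive), -0.245 in Het (3 of 9) and 0.28 in WT (6 of 9). No relation passed after adjustment, which a single relation in 6 mice could not do even at its lowest possible exact p.

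Mouse number was correlated with the 9 genes in the same way. In Homo mice all 9 correlations were negative, with a median of -0.52, and in Het mice 8 of 9 were positive, with a median of 0.63. The farthest in Homo was Epcam, with r of -0.849 (exact permutation p = 0.05, adjusted p = 0.427), rho -0.714 (exact p = 0.136), and -0.126 without mice 8 and 10, on which it rests. With mouse number removed by regression, the median correlation among the 9 genes was 0.38 in Homo, 0.17 in Het and 0.34 in WT. Without mice 8 and 17 it was 0.75 in the 4 remaining Homo mice.

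The genes most like the 9 in pattern were found from log2 CPM centred on each genotype's mean, over all 19 mice, by the median r with the 9 genes. Over 16455 other genes this measure lay between -0.31 and 0.32 in the middle 95%. Highest was Bcam, a laminin receptor of epithelia (0.54), followed by Sema5a, a semaphorin (0.54), Runx1, a transcription factor (0.53), Anxa8, an annexin (0.53), Ubl7 (0.52), LOC108168237 (0.52), Wdr35, a protein of ciliary transport (0.50), Mettl24 (0.50), Itgb4 (0.49) and Pkhd1, fibrocystin of primary cilia (0.49). Krt19 was at 0.36 and rank 197, Sox9 at 0.18 and Alb at -0.21. These 10 are the extremes of many genes and are given as a description. In Homo against WT, Bcam was at 1.36 ± 0.17 (edgeR adjusted p = 0.000358), from 1.62 ± 0.185 CPM in WT to 4.16 ± 1.41 in Homo, and Sema5a at 1.08 ± 0.20 (adjusted p = 0.0122). Anxa8 (2.19 ± 0.48), LOC108168237 (2.87 ± 0.61) and Itgb4 were also called there, whereas Runx1, Ubl7, Wdr35, Mettl24 and Pkhd1 were not.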

How the data were processed

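Liver RNA of 19 mice was prepared with a NuGen Ovation mouse kit, per the labels' protocols. The deposited values are raw, whole-number counts by gene symbol, 1 column per mouse. Per the submitters' processing notes, STAR 2.7.2b and featureCounts 1.6.4 were used with GRCm38. Settings, strand and annotation: not given in the sources used here. Of its 35976 rows 27 carry a date in place of a symbol and hold at most 0.174% of a library's counts.

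Counts were analysed in R 4.3.3 with edgeR 4.0.16: TMM, filterByExpr by genotype (16463 genes), and 1 quasi-likelihood fit over all 19 libraries, with two-sided Benjamini-Hochberg adjusted p under 0.05 called. CPM use TMM library sizes, and log2 CPM a prior count of 2. The SE comes from the fold change over the root of F. Correlations used exact permutation within a genotype, adjusted over all pairs, or over all marker relations, in the 3 genotypes. Exon lengths and positions come from GENCODE M21 (GRCm38), whose symbols may differ from the authors' annotation. Scripts were tested on simulated data.

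All pairs of libraries in a genotype differed by more than sampling noise (chi-square at least 21.6 per degree of freedom). The labels do not say how the mice were housed or bred beyond littermates, and p-values measure the spread between these mice. The 9 genes and 13 further lists were chosen with earlier results of these data known. Named beyond the 9 are Pkd1, most of the first 3 genes of each list, called list genes where 5 or fewer were called, and the 10 genes most like the 9. Alternatives were DESeq2 1.42.0, limma-voom (limma 3.58.1), DESeq2 size factors, other filters, only 2 genotypes, mouse number as a covariate, subsets by mouse number, and each library left out. Leaving out mice 8, 17 and 19 was chosen after seeing the data.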

Additional observations from a re-analysis of the deposited data

Results flagged for a closer look

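Of 39 groups of mice examined (the 9 genes and 4 comparison genes in each genotype), 5 held a mouse far from the rest. Chance gives about 1 in 20 groups for normally spread values in independent groups. These groups reuse the same mice and a normal spread was not checked, so no excess is read from the 5. Tspan8 in Het replicate 6 (mouse 20) was at 2.28 CPM, with the next highest Het mouse at 0.757. WT replicate 7 (mouse 13) stood apart for 3 genes: Cd24a at 2.60 CPM against 1.50 for the next mouse, Muc1 at 3.02 against 1.47, and Krt19 at 2.99 against 1.36. The same WT mouse had the lowest Cdh6 and Tspan8 of its group. Trem2 in WT replicate 4 (mouse 9) was at 4.67 CPM, with the next at 2.7. Without WT replicate 7 the log2 fold change of Muc1 for Het against WT was 0.40, against 0.0043 with all mice.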

How the results depend on the processing

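Of the 9 genes, 4 were called in each Homo comparison. For Homo against WT the number was 2 with only the 2 genotypes in the fit, 1 each when mouse number was added and when mice 1 to 3 were left out, and 0 within mice 8 to 13. It was 1 to 4 with 1 library left out, and 1 without WT replicate 1 or 3 or Homo replicate 2 or 3. For Homo against Het it was 2 with limma-voom and 0 within mice 14 to 20. It was 1 to 5 with 1 library left out: 1 without Het replicate 3 and 2 without Het replicate 1 or 2 or Homo replicate 2 or 3. The other alternatives gave 3 to 5 calls in each. The subsets by mouse number hold fewer mice. No WT mouse was numbered above 13 and no Homo mouse below 8, so genotype and mouse number cannot be fully told apart. Otherwise the cause was not tested. Over all genes, Homo against WT gave 2 to 304 calls (79 in the main fit), Homo against Het 0 to 102 (30) and Het against WT 3 to 28 (4; 1455 at an unadjusted p under 0.05), with DESeq2 highest in each. With 1 library left out these were 35 to 122, 9 to 34 and 4 to 7. All fold changes of the 8 tested genes kept their sign in both Homo comparisons. Signs turned in Het against WT, where none of the 8 was called under any of these alternatives. For Muc1 it was -0.10 when mouse number entered the fit, -0.41 when mice 1 to 3 were left out, -0.025 without mice 8, 17 and 19 and -0.14 to 0.40 with 1 library left out. Spp1 was at 0.0076 without mice 1 to 3 and -0.32 to 0.038 with 1 left out, Cdh6 at -0.14 without mice 8, 17 and 19 and -0.14 to 0.31, and St14 at -0.57 to 0.0056. The median correlation among the 9 genes moved with mouse number removed, from 0.56 to 0.38 in Homo, 0.37 to 0.17 in Het and 0.11 to 0.34 in WT, and to 0.75 in Homo without mice 8 and 17. No paired analysis was possible because the replicate numbers follow accession order and the labels give no litter. At 10 to 63 reads per library for Epcam and fewer for Cldn7 and Cldn4, counting error limits what these libraries can show.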

Other observations

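Other cell types of the liver were measured beside the duct genes. Of 8 neutrophil genes 3 were tested and none was called, with a median log2 fold change of -0.24 for Homo against WT. Of 6 B cell genes 5 were tested, with none called and a median of -0.16; Cd79a was at 0.22 ± 0.39. The 6 genes of liver tumours and fetal liver had no call and a median of 0.19. Afp, alpha-fetoprotein, was at 1.17 ± 0.286 CPM in WT (SD, n = 7) and 1.02 ± 0.245 in Homo (n = 6), and Gpc3, glypican-3, at 0.849 ± 0.244 and 0.927 ± 0.353.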
